A study of Rattus norvegicus with 12 samples.

Results

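The Egr transcription factors are 4 genes, Egr1, Egr2, Egr3 and Egr4, of the 18166 genes measured on arrays of rat inferior colliculus (IC), a relay of hearing in the midbrain; the strain is labelled SD (Sprague-Dawley). They were chosen by gene symbol: each probe listed with exactly 1 of these symbols was taken, and each of the 4 genes had 1 such probe. Every rat had an operation 2 weeks before tissue was taken. The single-sided deaf rats, 20 in number, had the right cochlea ablated, and 20 control rats had a sham operation, in which an incision was made behind the ear and the bony bulla was not drilled. The 12 arrays form 4 groups of 3: left IC of deaf rats, left IC of control rats, right IC of deaf rats and right IC of control rats. The labels give neither sex nor age. They leave unsaid how many rats went into each array and whether left and right arrays of a number share rats, so p-values measure the spread between arrays, which may be technical.

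The labels conflict in places: the series title and the sample descriptions speak of hippocampus, and the descriptions of the deaf samples of a noise group, whereas titles, source names and tissue entries give IC and single-sided deafness, which were used here. Tfap2d, a transcription factor gene of the midbrain tectum, had group means of 9.54 to 9.66 on the log2 intensity scale, above the upper quartile of the gene means, 7.33. The other 2 defining tectal markers, Pax7 (5.25 to 5.48) and Tfap2b (5.03 to 5.50), lay below the median of the gene means, 5.97. Of the forebrain markers, Neurod6 had group means of 3.25 to 3.71, below the lower quartile of 4.48, and Emx1 of 4.61 to 4.80, just above it. Right control 3 lay farthest out on the first principal component, at 27.3, and had the highest level of the cerebellar markers: its score, the mean of their log2 deviations from their own 12-array means, was 0.56. Right control 1 and 2 had scores of 0.26 and 0.045, and every array of the other groups had -0.0079 or lower.

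Egr proteins are zinc finger transcription factors that bind GC-rich DNA. In neurons their genes are immediate early genes: synaptic input that raises calcium and activates the MAP kinase pathway induces them within minutes, through serum response factor with its Elk partners and through CREB, without new protein synthesis. Egr1 (also called zif-268 or Krox-24) and Egr3 are known for roles in synaptic plasticity and memory, Egr4 is a neuronal member of the family, and Egr2 (Krox20) patterns the embryonic hindbrain and drives myelination in Schwann cells. The auditory fibres cross on their way up, so the left IC is driven mainly by the right ear, the one ablated, and the right IC mainly by the intact left ear.

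The proximal promoters are shown because elements through which activity acts on these genes can lie close to the start of transcription. The 4 genes had lower deaf means on the left and higher ones on the right, as did 25.0% of all genes. A part of the promoters in this was not tested. RefSeq windows on GRCr8, from 250 bases before to 50 after the start, were at hand for 3 of the 4 genes: Egr1 at chr18:26736828-26737127 on the plus strand, Egr2 at chr20:21054392-21054691 and Egr4 at chr4:119607768-119608067, both on the minus strand. They are printed 5′ to 3′, and capitals mark the serum response factor CArG box and CGTCA, the core of the cyclic AMP response element, searched on both strands.
Egr1: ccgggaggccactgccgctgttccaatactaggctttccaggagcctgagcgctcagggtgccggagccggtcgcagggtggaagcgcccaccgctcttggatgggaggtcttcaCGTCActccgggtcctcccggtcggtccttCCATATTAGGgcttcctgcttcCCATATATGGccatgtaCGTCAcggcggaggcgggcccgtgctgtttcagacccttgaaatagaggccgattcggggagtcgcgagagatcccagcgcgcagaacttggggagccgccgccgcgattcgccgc
Egr2: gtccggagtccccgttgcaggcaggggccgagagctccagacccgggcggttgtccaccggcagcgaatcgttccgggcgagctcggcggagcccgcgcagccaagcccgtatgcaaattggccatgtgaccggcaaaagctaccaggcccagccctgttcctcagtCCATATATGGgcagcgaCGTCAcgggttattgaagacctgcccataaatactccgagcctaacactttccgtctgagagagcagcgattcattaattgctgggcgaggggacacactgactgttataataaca
Egr4: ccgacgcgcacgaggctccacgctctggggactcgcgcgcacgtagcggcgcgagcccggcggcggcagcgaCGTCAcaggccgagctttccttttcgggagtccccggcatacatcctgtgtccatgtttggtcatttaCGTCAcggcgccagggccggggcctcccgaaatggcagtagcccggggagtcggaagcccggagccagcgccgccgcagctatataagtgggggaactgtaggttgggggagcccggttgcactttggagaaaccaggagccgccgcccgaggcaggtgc
The Egr1 window held 2 CArG boxes and 2 copies of CGTCA. The Egr2 window held 1 CArG box and 1 copy of CGTCA, and the Egr4 window held 2 copies of CGTCA and 0 exact CArG boxes. A CArG box was found in 1.64% of 33465 rat promoter windows of this length, and CGTCA in 21.2%. The full element TGACGTCA (1.83% of windows) and the Egr sites GCGTGGGCG (0.544%) and GCGGGGGCG (2.73%) had 0 matches in the 3 windows. The motifs were chosen from textbook knowledge with the expression values already known, and a match is a description of the letters only.

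In deaf rats the 4 Egr genes had lower means in the left IC than in control rats and higher means in the right IC, and no gene passed the test on either side. A mean lower on the left together with a mean higher on the right was found for 25.0% of all genes; 51.8% had a lower deaf mean on the left and 49.5% on the right. Within deaf rats each of the 4 genes had a lower mean in the left IC than in the right IC, by 0.25 to 0.40 on the log2 scale, a direction shared by 52.2% of all genes. For Egr1, Egr2 and Egr3 all 3 left deaf arrays lay below all 3 right deaf arrays, which was the case for 4.58% of all genes. Both counts of 4 were the same without right control 3, as without any other single array, and the count of 3 was 4 without left deaf 3 or without right deaf 1. The comparisons share arrays, since each deaf group enters both a deaf minus control and a left minus right difference. Tissue was measured in bulk, so fewer expressing cells and less RNA per cell cannot be told apart.

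**Figure D1:**
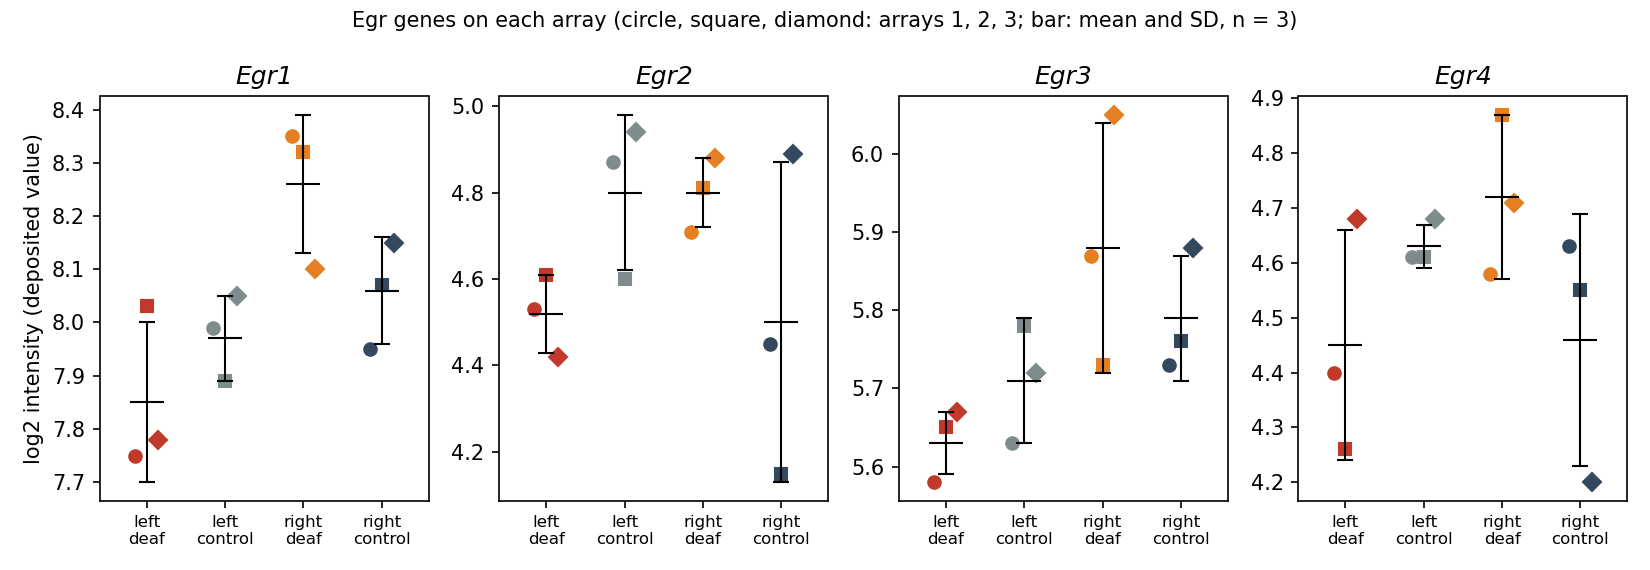
Log2 intensity of each Egr gene (vertical axis, a scale of its own per gene) on the 12 arrays, by group (horizontal axis); bars are the mean and SD of 3 arrays. Left deaf arrays lie below right deaf arrays for Egr1, Egr2 and Egr3, and the groups of Egr4 overlap.

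Egr1 (Entrez 24330) stood at 7.75, 8.03 and 7.78 on the left deaf arrays, against 7.99, 7.89 and 8.05 on the left control arrays, as deposited log2 intensities. It stood at 8.35, 8.32 and 8.10 on the right deaf arrays, against 7.95, 8.07 and 8.15 on the right control arrays. Left deaf 1 and 3 were the 2 lowest of the 12 arrays and right deaf 1 and 2 the 2 highest, while on each side the deaf and control arrays overlapped. The group means ran from right deaf (8.26 ± 0.13) through right control (8.06 ± 0.10) and left control (7.97 ± 0.08) to left deaf (7.85 ± 0.15; SD, n = 3 each), and the arrays of neighbours in this order overlapped. The log2 difference of deaf minus control was -0.12 (SE 0.10, 95% interval -0.35 to 0.10) on the left and 0.20 (SE 0.10, interval -0.02 to 0.43) on the right. The left-side difference was -0.21 without left deaf 2, -0.07 without left deaf 1 and -0.08 without left control 3. Neither side passed (limma adjusted p = 1.00 over all 18166 genes for both). Over the 4 Egr genes the exact two-sided permutation p was 0.2 to 0.4 on the left and 0.2 to 0.7 on the right.

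Between the sides, Egr1 was lower in left deaf than in right deaf arrays by 0.40 on the log2 scale (SE 0.10; 95% interval of left minus right -0.63 to -0.18), a left to right ratio of 0.755. Its unadjusted limma p of 0.002 ranked 22nd of 18166 genes, and the adjusted p was 1.00, so the difference did not pass. The exact two-sided permutation p was 0.1, the smallest that 3 arrays against 3 allow. In control rats the left minus right difference of Egr1 was -0.08 (SE 0.10; interval -0.30 to 0.14).

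Egr3 (Entrez 25148) stood at 5.58, 5.65 and 5.67 on the left deaf arrays, against 5.63, 5.78 and 5.72 on the left control arrays. On the right it stood at 5.87, 5.73 and 6.05 on deaf arrays, against 5.73, 5.76 and 5.88 on control arrays. The order of the group means was that of Egr1: right deaf (5.88 ± 0.16), right control (5.79 ± 0.08), left control (5.71 ± 0.08) and left deaf (5.63 ± 0.04; SD, n = 3 each), again with overlap between neighbours. The deaf minus control differences were -0.08 (SE 0.093) on the left and 0.09 (SE 0.093) on the right. Within deaf rats left minus right was -0.25 (SE 0.093, 95% interval -0.45 to -0.05; exact permutation p = 0.1, unadjusted limma p = 0.0197, adjusted p = 1.00). Egr1 and Egr3 were thus the 2 Egr genes with an unadjusted p under 0.05 here, as were 1.90% of all genes in this direction. Right deaf 3 was the highest of the 12 arrays, and without it the side difference was -0.17, and the right-side difference was 0.01.

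Egr2 (Entrez 114090) was dimmer, with a mean of 4.65 close to the lower quartile of the gene means. The table holds no background measure. It stood at 4.53, 4.61 and 4.42 on the left deaf arrays, against 4.87, 4.60 and 4.94 on the left control arrays, a log2 difference of -0.29 (SE 0.16). On the right it stood at 4.71, 4.81 and 4.88 on deaf arrays, against 4.45, 4.15 and 4.89 on control arrays, a difference of 0.30 (SE 0.16). Right control was the most uneven group (SD 0.37), where right control 3 lay with the highest arrays and right control 2 was the lowest of all 12. The right-side difference was 0.50 without right control 3 and 0.13 without right control 2. Left control (4.80 ± 0.18) and right deaf (4.80 ± 0.08) shared the top of the order, and left deaf (4.52 ± 0.09) and right control (4.50 ± 0.37; SD, n = 3 each) the bottom. Left deaf and right deaf did not overlap, and the other neighbours in this order did. Left minus right was -0.28 (SE 0.16) in deaf rats and 0.31 (SE 0.16) in control rats, opposite in sign, with intervals of -0.63 to 0.07 and -0.04 to 0.65.

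Egr4 (Entrez 25129), also dim with a mean of 4.57, stood at 4.40, 4.26 and 4.68 on the left deaf arrays, against 4.61, 4.61 and 4.68 on the left control arrays. On the right it stood at 4.58, 4.87 and 4.71 on deaf arrays, against 4.63, 4.55 and 4.20 on control arrays. Left deaf 3 lay among the higher arrays, so the 2 deaf groups overlapped, and right control 3 was the lowest of the 12. The group means were 4.72 ± 0.15 in right deaf, 4.63 ± 0.04 in left control, 4.46 ± 0.23 in right control and 4.45 ± 0.21 in left deaf (SD, n = 3 each), and neighbours in this order overlapped. Deaf minus control was -0.18 (SE 0.13) on the left and 0.26 (SE 0.13) on the right. The left-side difference was -0.09 without left deaf 2 and -0.30 without left deaf 3, and the right-side difference was 0.13 without right control 3. Left minus right was -0.28 (SE 0.13, 95% interval -0.57 to 0.02) in deaf rats and 0.17 (SE 0.13) in control rats.

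**Figure D2:**
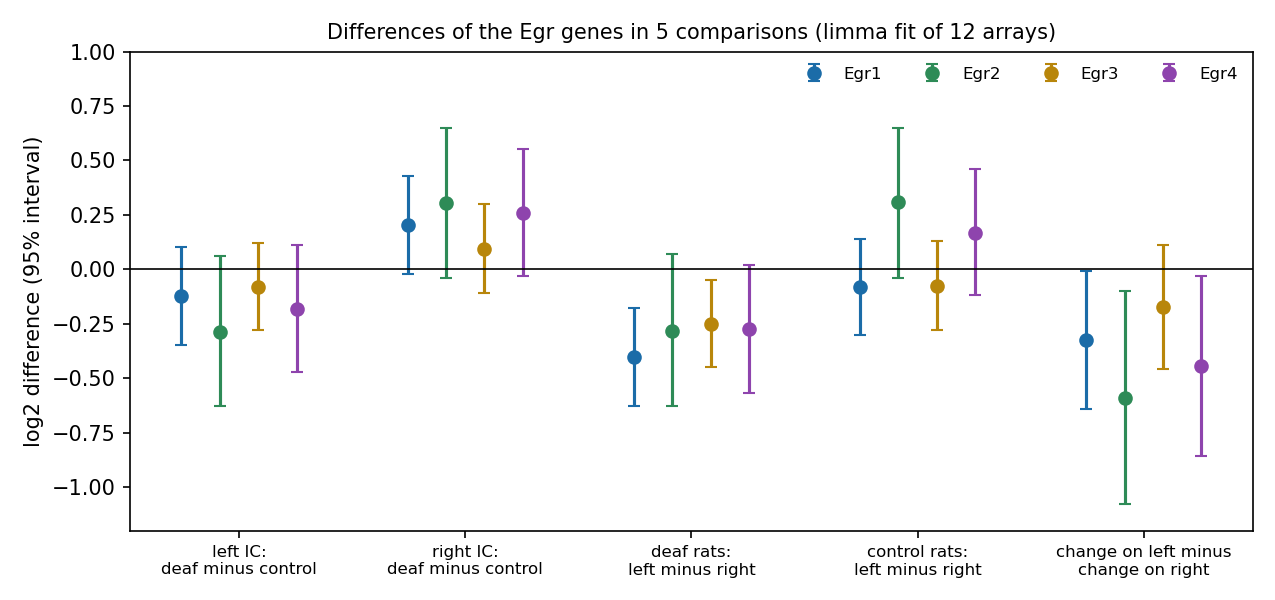
Log2 differences of the 4 Egr genes (vertical axis; points are fitted differences, bars 95% intervals from the limma fit of 12 arrays) in 5 comparisons (horizontal axis). All 4 points are below 0 on the left and above 0 on the right, and in deaf rats the left minus right intervals of Egr1 and Egr3 lie wholly below 0 before adjustment over all genes.

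The test of whether the change on the left differs from the change on the right gave negative values for all 4 genes: -0.32 (SE 0.14) for Egr1, -0.59 (SE 0.23) for Egr2, -0.17 (SE 0.13) for Egr3 and -0.44 (SE 0.19) for Egr4. Unadjusted limma p-values were 0.0457, 0.0227, 0.211 and 0.0368 in that order. None passed over all genes (adjusted p = 1.00 each). An unadjusted p under 0.05 in the negative direction was found for 1.67% of all genes. The same value is the left minus right difference of deaf rats less that of control rats: these 2 differences had the same sign for Egr1 and Egr3, larger in deaf rats, and opposite signs for Egr2 and Egr4. The control difference rested in part on single arrays: for Egr2 it was 0.13 without right control 2, and for Egr4 0.04 without right control 3. Averaged over both sides, deaf minus control was 0.04 (SE 0.072) for Egr1, 0.01 (SE 0.11) for Egr2, 0.01 (SE 0.066) for Egr3 and 0.04 (SE 0.094) for Egr4, with 95% intervals between -0.24 and 0.25 over the 4 genes. No gene was called by limma in any of the 6 comparisons (0% of 18166 genes), against 670 on the left (3.69%) and 783 on the right (4.31%) at an unadjusted p under 0.05, with no Egr gene among them.

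**Figure D3:**
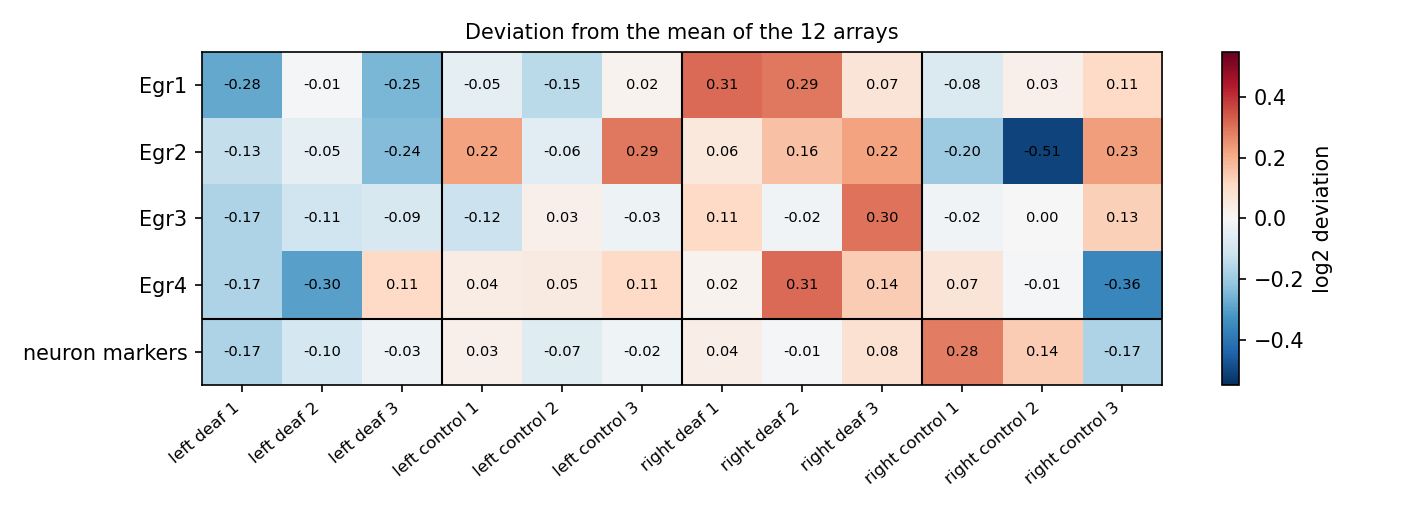
Log2 deviation of each array (columns, by group) from the 12-array mean for each Egr gene and for the mean of 7 neuron markers (rows); red is above and blue below the mean. Egr1 to Egr3 and the neuron markers are below their means on all 3 left deaf arrays, and the arrays that are high or low within a group differ from gene to gene.

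The residual SD within groups was 0.119 for Egr1, 0.217 for Egr2, 0.0998 for Egr3 and 0.174 for Egr4, and 31.9%, 76.4%, 21.0% and 60.6% of all genes had a lower one, in that order. The arrays that were high or low within a group differed between the genes. Left deaf 2 was the highest left deaf array for Egr1 and Egr2 and the lowest for Egr4, and right deaf 3 was the lowest right deaf array for Egr1 and the highest for Egr2 and Egr3. Over the 12 arrays Pearson's r was 0.53 between Egr1 and Egr3, 0.42 between Egr1 and Egr2, 0.33 between Egr2 and Egr3, and 0.07 to 0.18 between Egr4 and the other 3 genes. Once each group's mean was taken away, r was -0.26 for Egr1 with Egr3, 0.33 for Egr1 with Egr2 and -0.53 to -0.37 for Egr4 with the others. These values describe 12 arrays that share their normalization.

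Neuron markers lay the same way as the Egr genes between the sides of deaf rats. All 7 measured members (Rbfox3, Snap25, Syt1, Slc17a6, Gad1, Gad2 and Slc6a5) had lower means in left deaf than in right deaf arrays, with a median log2 difference of -0.087 beside -0.0057 over all genes. Their list score was -0.17 to -0.029 on the left deaf arrays and -0.012 to 0.084 on the right deaf arrays, and their summed linear intensity was 10096 to 10836 on the left and 10833 to 11348 on the right. Gad1, which makes GABA, differed by -0.24 (SE 0.12) and Slc17a6, the glutamate transporter of midbrain neurons, by -0.21 (SE 0.10). Snap25, the third defining neuron marker, differed by only -0.04 (SE 0.13). The part of this shift in the Egr values was not tested. Astrocyte and myelin markers lay the same way by less: 6 of 6 measured astrocyte members (median -0.041) and 9 of 9 measured oligodendrocyte and Schwann cell members (median -0.045) had lower means in left deaf than in right deaf arrays. The summed intensities were 8299 to 9367 on left deaf and 9188 to 9441 on right deaf arrays for astrocytes, and 7811 to 8450 and 8088 to 8711 for the myelin list. The midbrain tectum list had 9 of 14 members higher on the left (median 0.07) and the hippocampus and forebrain list 6 of 12 (median -0.018). The widest shifts were in 2 other lists: 8 of 10 meningeal and fibroblast markers were higher on the left (median 0.22), and both measured blood markers of 5 listed were lower there (median -0.12). In control rats 6 of 7 neuron members also had lower means on the left (median -0.043). So had 6 of 6 astrocyte members (median -0.092), 8 of 9 of the myelin list (median -0.077) and both blood markers (median -0.19). The forebrain list had 12 of 12 lower there and the tectum list 7 of 14. The cerebellar list had 12 of 15 lower (median -0.15) and the microglial list 9 of 10 (median -0.13), whereas 3 of 4 measured endothelial markers were higher (median 0.027). Of the meningeal and fibroblast markers 9 of 10 were lower (median -0.23), opposite to deaf rats.

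Marker means also lay apart between deaf and control arrays. On the left, all 10 meningeal and fibroblast markers had higher means in deaf arrays (median 0.34), with a summed intensity of 888 to 1679 on left deaf and 713 to 1052 on left control arrays. This list was uneven within the group: its score was 0.62 on left deaf 2 and -0.053 and -0.099 on left deaf 1 and 3, both below left control 1 at 0.12. On the right, 14 of 15 cerebellar members had lower deaf means (median -0.17), with sums of 1432 to 1510 on right deaf and 1525 to 1807 on right control arrays. Its defining members Gabra6, Cbln3 and Pcp2 differed there by -1.54 (SE 0.37), -1.19 (SE 0.28) and -0.56 (SE 0.26). Of the hippocampus and forebrain list, 11 of 12 members had lower deaf means on the right, and of the microglial list 9 of 10. The astrocyte list had 5 of 6 lower on the left and 6 of 6 on the right. For the myelin list the sums were 7811 to 8450 on left deaf and 8625 to 8818 on left control arrays. On the right they were 8088 to 8711 in deaf and 8974 to 9909 in control arrays, so neither side overlapped. Both measured blood markers had lower deaf means on the left (median -0.28) and on the right (median -0.35), with sums of 333 to 473 on right deaf and 498 to 571 on right control arrays, which did not overlap. Neuron markers were divided on the left, with 3 higher and 4 lower deaf means (median -0.0067). On the right 6 of 7 had higher deaf means (median 0.038), although their mean score was lower in right deaf (0.036) than in right control arrays (0.083). The part of these marker differences in the Egr values was not tested either, and no marker is at 0 on this scale.

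Other immediate early genes had means in both directions. Of 40 listed genes 35 were measured, and none passed the test on either side. In the left IC the deaf means were higher for 20 and lower for 15 (median 0.056, beside -0.0051 over all genes), and in the right IC higher for 18 and lower for 17 (median 0.006, beside 0.0014). Ccn1, a matricellular protein gene, had a left difference of 0.37 (SE 0.17) and Atf3, a stress-induced factor gene, of 0.47 (SE 0.23), both with deaf arrays above control arrays and both highest on left deaf 1. Arc, a dendritic effector gene and an Egr target, was at 5.67, 5.75 and 5.78 on left deaf arrays, against 6.02, 5.98 and 5.91 on left control arrays, a difference of -0.24 (SE 0.14) without overlap. For comparison, arrays did not overlap for 10.3% of all genes on the left and 7.48% on the right. On the right Fos, the AP-1 subunit gene, was 0.35 higher (SE 0.20), Npas4, an activity-dependent factor gene, 0.40 higher (SE 0.21) and the nuclear receptor gene Nr4a3 0.31 higher (SE 0.16), all with overlapping arrays. Within deaf rats 25 of the 35 had lower means on the left than on the right, where 52.2% of all genes did, with a median of -0.053. Fos was at -0.42 (SE 0.20), Npas4 at -0.30 (SE 0.21) and Arc at -0.29 (SE 0.14), whereas Atf3 was at 0.34 (SE 0.23), Ccn1 at 0.09 (SE 0.17) and Nr4a3 at -0.03 (SE 0.16). In control rats 22 of the 35 also had lower means on the left (median -0.021), beside 50.4% of all genes. There Fos was at -0.03 (SE 0.20), Npas4 at -0.01 (SE 0.21) and Arc at 0.15 (SE 0.14).

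Genes that end or dampen the same signal had their means ordered as the Egr genes had between the sides of deaf rats. This list holds MAP kinase phosphatases, Sprouty and Spred inhibitors and the G protein regulators Rgs2 and Rgs4. All 14 measured of 15 listed members had lower means in left deaf than in right deaf arrays (median -0.18, beside -0.0057 over all genes), and none passed over all genes. Arrays did not overlap for 4 of them, beside 4.58% of all genes in this direction. In control rats 9 of the 14 had lower means on the left (median -0.017). Rgs4, which shortens Gq and Gi signalling, was at 7.39, 7.41 and 7.48 on the left deaf arrays and at 7.80, 7.76 and 7.79 on the right deaf arrays (-0.35, SE 0.099). Its 3 left control arrays, at 7.79, 7.96 and 7.77, also lay above the left deaf arrays (-0.41, SE 0.099; limma adjusted p = 0.986). Spred3, an inhibitor of the Ras to MAP kinase step, was at 6.21, 6.31 and 6.25 on left deaf arrays, against 6.55, 6.47 and 6.52 on left control arrays (-0.26, SE 0.087). Rgs2 differed by -0.26 (SE 0.13) on the left and 0.23 (SE 0.13) on the right, where its arrays did not overlap. Against control, the list was evenly divided on the left, with 7 higher and 7 lower, and on the right 9 of 14 had higher deaf means. The phosphatase genes Dusp1 and Dusp2 each differed by 0.30 on the right (SE 0.21 and 0.12).

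The corepressors and the upstream regulators showed no common direction. Nab1 and Nab2, which bind Egr1, Egr2 and Egr3 and repress them, had left differences of -0.08 (SE 0.16) and -0.14 (SE 0.16) and right differences of 0.06 (SE 0.16) and -0.14 (SE 0.16). Within deaf rats both were at -0.04 between the sides. Nab2, itself an Egr target, thus had lower deaf means on both sides, with overlapping arrays. Of 16 measured regulators among 21 listed, 8 deaf means were higher and 8 lower in the left IC, and in the right IC 9 were higher and 7 lower, and none passed. Elk1, the serum response factor partner, had the opposite sign to the Egr genes on the left: it was at 8.17, 7.93 and 7.95 on left deaf arrays, against 7.60, 7.76 and 7.73 on left control arrays (0.32, SE 0.11; limma adjusted p = 1.00). Srf itself differed by 0.20 (SE 0.12) and Elk3 by -0.18 (SE 0.14) on the left. On the right the CREB kinase gene Rps6ka5 was at 0.13 (SE 0.11) and Mef2c at 0.09 (SE 0.085).

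Genes reported as Egr targets in other tissues were listed without regard to direction, and 26 of 31 were measured. In the left IC 13 deaf means were higher and 13 lower (median 0.00074), in the right IC 16 were higher and 10 lower (median 0.045), and none passed. The growth factor gene Pdgfb was lower on the left by 0.33 (SE 0.12) without overlap, and Tgfb1 was higher by 0.31 (SE 0.23). On the right the values were -0.15 (SE 0.095) for Id4, -0.30 (SE 0.19) for the neurotrophin receptor gene Ngfr and 0.10 (SE 0.071) for Rasgrf1, and the arrays of Ngfr and Rasgrf1 did not overlap. Myelin genes in this list are Egr2 targets in Schwann cells, whereas myelin of the IC is made by oligodendrocytes. The myelin marker list, most of whose members are not in the target list, had 7 of 9 members lower on the left (median -0.051) and 8 of 9 lower on the right (median -0.098). A link of these myelin values with Egr2 was not tested.

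**Figure D4:**
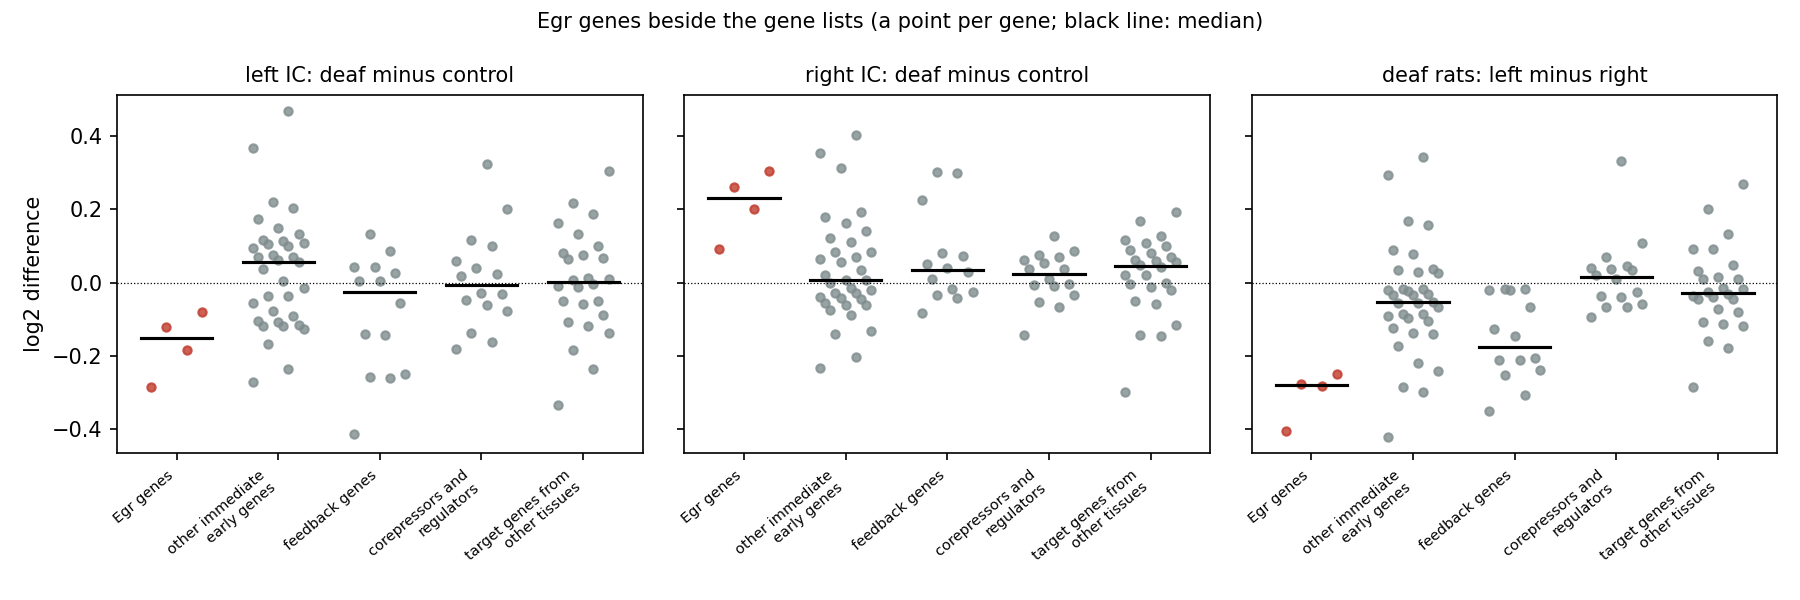
Log2 differences (vertical axis) of the 4 Egr genes (red) and of the measured members of 4 gene lists (grey; a point per gene, black line the median) in 3 comparisons. The Egr genes lie on one side of 0 in each panel, the grey lists straddle 0 against control, and in deaf rats the 14 feedback genes all lie below 0 between the sides.

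Among 13408 genes above the lower quartile of level, with symbols beginning LOC, RGD, Mir, Olr, Vom or AABR left out, those most like each Egr gene over the 12 arrays were picked by Pearson's r. For Egr1 these were Lin7a (0.875), Natd1 (0.857), A1bgl1 (0.812) and Txn2 (0.807). For Egr3 they were Sh3bp1 (0.90), Dclk1 (0.893), Hist1h2bd (0.877) and Nsmce3 (0.877). For Egr2 they were Rbbp4-ps2 (0.887), Tpd52l1 (0.847), Plekhm2 (0.839) and Rnf122 (0.837), and for Egr4 Lrrc55 (0.902), Zfp365 (0.897), Spata6l (0.874) and Cep126 (0.874). No Egr gene and no listed immediate early gene was among the 4 nearest to another Egr gene. On deviations from the group means the nearest were Or10d4 (0.951), Cblb (0.933), Tmem79 (0.921) and Natd1 (0.906) for Egr1. They were Sun2 (0.965), Nfia (0.959), Mgat4b (0.948) and Rbbp4-ps2 (0.944) for Egr2. For Egr3 they were Hs6st2 (0.964), Hist1h2bd (0.935), Cidea (0.917) and Zfp692 (0.915), and for Egr4 Thap2 (0.964), C3h9orf50 (0.954), Calb1 (0.944) and Fank1 (0.943). Natd1, Rbbp4-ps2 and Hist1h2bd were found both ways. Taken as the highest of so many candidates, such values are a description of these arrays.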

How the data were processed

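The labels' protocols describe Trizol extraction, enzymatic fragmentation of single-stranded cDNA and biotin labelling for Affymetrix arrays. The authors deposited log2 intensities that had been brought to a common scale: each array's median was 5.34, and values of equal rank lay within 0.0995 of each other. Neither the array model nor the normalization software is named in the labels used here. Arrays have no read depth, so precision rests on 3 arrays a group.

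Of 29489 probes, 18511 had 1 gene symbol in the platform annotation, 575 several and 10403 none. The brightest probe of each gene by its mean over 12 arrays was kept (18166 genes), with no filter on dim genes. Limma 3.58.1 in R 4.3.3 fitted 4 group means over all 12 arrays and 6 contrasts, two-sided, with Benjamini-Hochberg adjustment over all genes and a threshold of 0.05. Intervals are at 95% and unadjusted for the number of genes. The fit was tested on simulated data. Named genes were the Egr genes, Nab1, Nab2, the 3 members per list with the smallest p on each side, the 4 genes most alike per Egr gene, and defining markers. Members, lists and this rule were chosen with earlier results of these data known. Other genes named were picked after their values were seen. Alternatives were other normalizations, probe rules, variance models, weights, blocks by replicate number, exact permutation tests and leaving out each array.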

Additional observations from a re-analysis of the deposited data

How the results depend on the processing

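No value of the Egr genes passed the adjusted threshold under any alternative; the lowest adjusted p was 0.549, for Egr2 left minus right in control rats with array weights, where the difference was 0.50. Of 514 alternative values of single Egr genes 9 turned their sign and 505 did not. These 9 are all of deaf minus control averaged over both sides with 1 array left out, which ran from -0.08 to 0.11 for Egr2, -0.04 to 0.04 for Egr3 and -0.03 to 0.08 for Egr4. Many of the 505 could not turn. With 1 probe per Egr gene and groups of equal size, the probe rules, variance models, restricted fits and block leave a difference as it was. The 505 is therefore no measure of stability. The count of 4 Egr genes lower on the left and higher on the right was the same without each array. So was the count of 4 lower in left deaf than in right deaf. Both were also the same after quantile normalization and after centring on the median. The count of Egr genes with no overlap between left and right deaf was 3 to 4 (these counts were added after the data were seen). Both normalizations had little to change, since each array's median was already 5.34 and values of equal rank lay within 0.0995. Counts left unchanged by them are therefore no measure of stability either. Without 1 array, Egr1 left minus right in deaf rats ran from -0.49 to -0.35, Egr2 from -0.33 to -0.23, Egr3 from -0.33 to -0.17 and Egr4 from -0.39 to -0.18.

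The number of genes called, 0 in all 6 comparisons, was 1 for left deaf minus control and 1 for left minus right in deaf rats among genes above the median level (Vgf in both). With a variance trend and robust estimation it was 1 (Vgf) and 2 (Vgf and Or52a5b). With 1 array left out it was 0 to 1 for deaf minus control on the left (Vgf without left deaf 3) and averaged over both sides (Clec2d2 without right control 3). With replicate number as a block 1 gene (RGD1565183) was called for left minus right in control rats and 1 for the interaction. These genes were named after their values were seen, and the cause of the differences was not tested. Whether the numbers pair the arrays could not be decided, since each group has only 3 arrays. Over all genes, deviations of same-numbered left and right arrays correlated by -0.0558 to 0.149. Of the 6 left arrays 3 correlated best with their own number. Each group holds each replicate number once, so the block cannot alter a difference (Egr1 left minus right in deaf rats stayed at -0.40). It can alter only the SE and p-value, and no call on an Egr gene changed. Restricting the fit to the groups compared was not run for the mean of both sides and the interaction, which need all 4 groups. Filtering on the median level leaves out Egr2, Egr3 and Egr4, so it gives values for Egr1 only. Egr2 and Egr4 lie near the lower quartile of level, and no measure of signal over background was at hand for them.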
